A study of Homo sapiens with 8 samples.

Results

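The classical cadherins and the non-clustered protocadherins were followed as a set of 34 genes among the 60286 in the deposited single-cell matrix. The members were listed by symbol (CDH or PCDH) from family membership and not by a rule on their values, though earlier results of these data were known. All 34 were found as rows of the matrix. They comprised 5 type I classical cadherins (CDH1, CDH2, CDH3, CDH4 and CDH15), 13 type II classical cadherins (CDH5 to CDH12, CDH18, CDH19, CDH20, CDH22 and CDH24), 4 other cadherins (CDH13, CDH17, CDH23 and CDH26), 4 delta-1 protocadherins (PCDH1, PCDH7, PCDH9 and PCDH11X), 5 delta-2 protocadherins (PCDH8, PCDH10, PCDH17, PCDH18 and PCDH19) and 3 others (PCDH12, PCDH15 and PCDH20). Chromosomes 16 and 5 each carried 7 of them, and chromosomes 13 and 18 carried 4 each.

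Cadherins are membrane proteins that hold cells together through calcium-dependent contacts between their extracellular repeats. Classical cadherins bind the same or closely related cadherins on the next cell and are anchored to actin through the catenins. In the developing brain the type II genes are switched on in regional and subtype patterns, and cells carrying the same cadherins tend to sort and connect together. Delta-protocadherins adhere more weakly, and their cytoplasmic tails contact regulators of the actin cytoskeleton.

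The study profiled neural cultures in 2-D or 3-D, all grown from H1 (an established line of human embryonic stem cells), and asked about their cell composition and their responses to dopamine, cocaine and morphine. Polyadenylated RNA was barcoded by split-pool combinatorial indexing (Parse Biosciences), and dissociation with papain is stated for the 3-D cultures. The labels describe 8 sublibraries of 1 pool and assign no condition to them, so conditions were read from the tag in each cell name. The 46 tags fell into 9 arrangements.

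Arrangement 2DMono had 6 tags and 3DMono had 6, each with 2 tags marked AcDop, 2 AcMor and 2 Vehic. Arrangement 2DCocu had 12 tags (4 AcCoc, 4 AcMor and 4 Vehic), and 3DFusi had 10 (4 AcCoc, 3 AcMor and 3 Vehic). The remaining arrangements carried no treatment in their names: 2DProto2Fjo, 2DProto3Wu and 2DProto4Nic had 2 tags each, and 3DProto1For and 3DProto2Xia had 3 each. The labels define none of these abbreviations, and all groups share the H1 background, which is 1 genetic line. They do not say whether tags are separate cultures, so every p-value measures the spread between tags, which may be technical.

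The matrix held 43693 cells with a median of 12776 expected counts per cell. Summed over cells, the tags held between 3624668 and 58777178 counts. The sublibraries are splits of 1 pool that hold the same tags, so the spread between them is not a spread between cultures. CPM is the part of the counts of a tag that fell on the gene, scaled to a common total. Taken per sublibrary, the 19 members averaging 20 CPM or more had coefficients of variation of 1.0% to 8.4%. The other 15 had 3.2% to 21.9%. Of 41192 barcodes, 2393 occurred in more than 1 sublibrary. Levels below are CPM of a tag's summed counts and are compared for the same gene across tags, not between genes, since they are not per length. In such sums, fewer cells of a type and less RNA per cell cannot be told apart.

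Format was compared in the arrangements that carried matching treatments: 3DMono against 2DMono, and 3DFusi against 2DCocu. In the first pair CDH7, a type II cadherin of neural tissue, was much higher in 3-D, and CDH6, another type II cadherin patterned across the forebrain, was much lower. CDH23 rose and CDH13, PCDH7, PCDH15, PCDH19 and CDH10 fell. In the second pair CDH13, PCDH15, CDH6 and PCDH19 were again lower in 3-D and CDH7 again higher, now joined by CDH19, CDH9, CDH1 and PCDH10.

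By edgeR's quasi-likelihood test with Benjamini-Hochberg adjustment over all genes, 18 of 33 members tested passed an adjusted p of 0.05 in 3DMono against 2DMono, 8 higher and 10 lower in 3-D. Of all 21862 genes tested, 38.0% passed, 17.5% higher and 20.4% lower. In 3DFusi against 2DCocu, 21 of 34 members passed, 12 higher and 9 lower, against 48.8% of 22511 genes (26.1% higher and 22.7% lower). The members' median log2 fold change was -0.28 for 3DMono against 2DMono and 0.27 for 3DFusi against 2DCocu, against 0.03 and 0.04 over all genes. Between Vehic tags alone, 13 of 33 members passed in the second pair, 8 higher and 5 lower, against 28.12% of all genes. In the first pair 16 of 33 passed, 7 higher and 9 lower, against 14.42%. Among the members with a call lost in that fit were CDH3 (-0.58, adjusted p = 0.1393), CDH11, CDH24 and PCDH1 in the first pair, which left 2 against 2 tags. In the second they included CDH1 (0.59, adjusted p = 0.1966), CDH3 (0.29, adjusted p = 0.3111), CDH19 (1.85, adjusted p = 0.1328), CDH12, CDH20, CDH22, PCDH7 and PCDH9. The main fit treats the 3DFusi tags as independent, though same-number tags varied together, as given further on, so its p-values may be too small. An alternative chosen after the data were seen summed the 3DFusi tags by number. It had no term for treatment, and number 2 held an AcCoc tag alone, so it changes the model as well as the summing. There 19 members passed against 40.33% of all genes. CDH3, CDH12, CDH18 and PCDH9 lost their calls, and CDH4 (0.36, adjusted p = 0.04684) and PCDH1 (0.49, adjusted p = 0.009505) then passed.

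**Figure D1:**
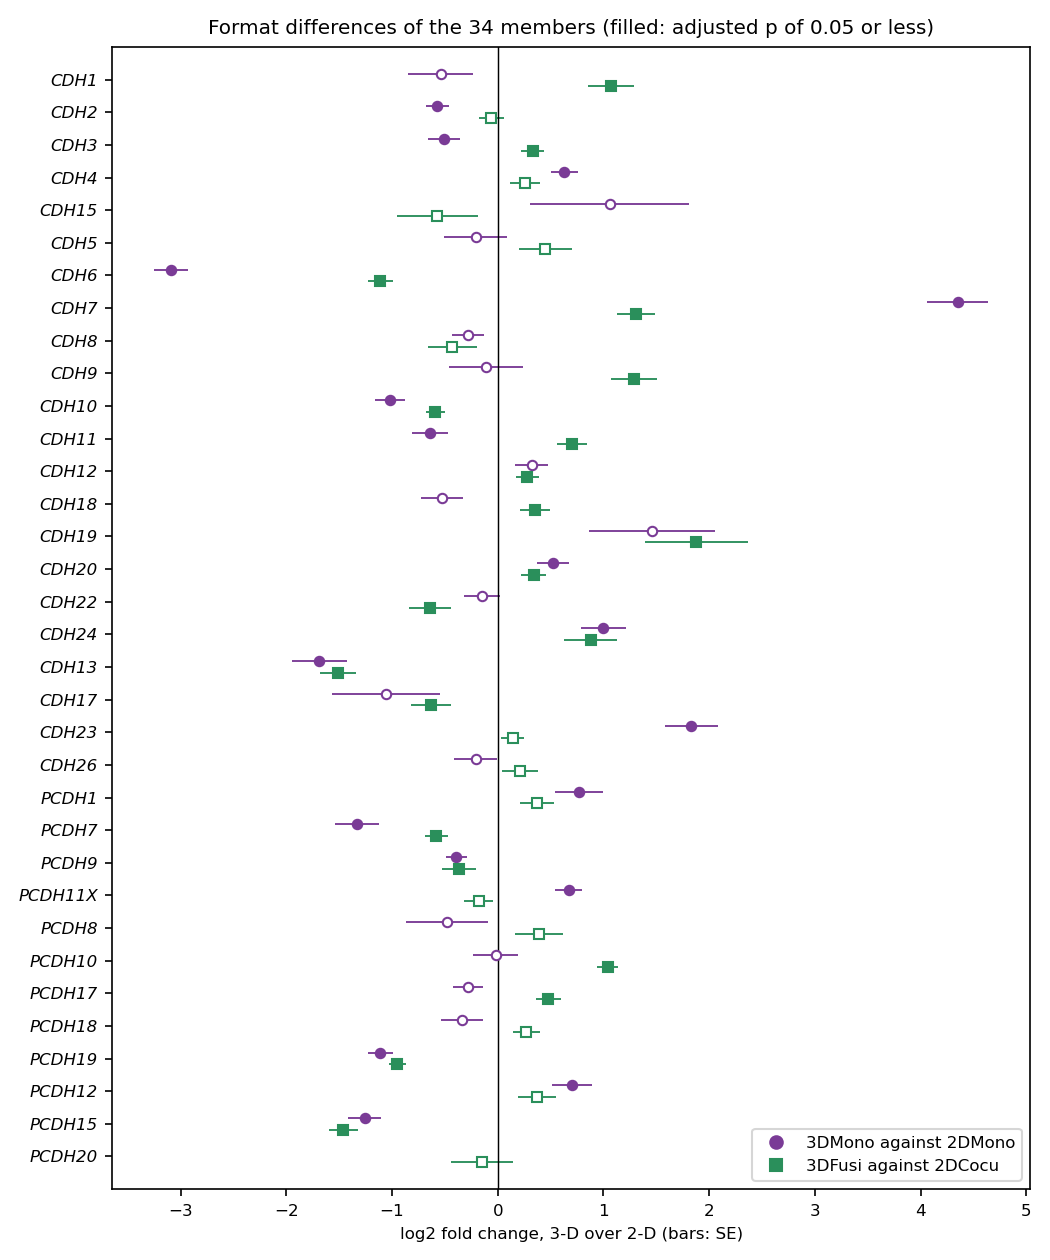
Log2 fold change of 3-D over 2-D (± SE) for each of the 34 members, with circles for 3DMono against 2DMono and squares for 3DFusi against 2DCocu. Filled symbols passed an adjusted p of 0.05; CDH7 is the highest circle at 4.35 and CDH6 the lowest at -3.09, and PCDH20 has a value only in the second pair.

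The tags of the 2 formats did not overlap for 11 of 34 members in the first pair (CDH4, CDH6, CDH7, CDH10, CDH13, CDH23, PCDH7, PCDH11X, PCDH19, PCDH12 and PCDH15). The share over all genes was 21.6%. In the second pair, with more tags, 4 members did not overlap (CDH13, PCDH10, PCDH19 and PCDH15), against 6.5% of all genes.

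CDH7 (ENSG00000081138.14) lies on chromosome 18 of GRCh38, from 65750252 to 65890337. Its tags ranged from 39.78 to 106.9 CPM (median 90.3) in 3DMono and from 1.165 to 5.811 (median 2.78) in 2DMono. Every 3-D tag lay far above every 2-D tag. The log2 fold change was 4.35 ± 0.29 (SE, 6 against 6 tags), with an edgeR adjusted p of 1.36e-07. Across 3DFusi and 2DCocu, CDH7 spanned 14.87 to 37.64 CPM (median 32.3) in the first and 7.541 to 17.21 (median 11.0) in the other. The groups touched at their edges, and the fold change was smaller at 1.31 ± 0.18 on the log2 scale (10 against 12 tags, adjusted p = 3.453e-06).

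CDH6, on chromosome 5 from 31193686 to 31329146, was the strongest decrease of the first pair. Its 3DMono tags held 30.98 to 50.34 CPM (median 44.9) and its 2DMono tags 194.7 to 529.6 (median 295). The lowest 2-D tag was above the highest 3-D tag, with a log2 fold change of -3.09 ± 0.16 (adjusted p = 5.695e-09). In 3DFusi it ranged from 38.47 to 73.29 (median 51.7) against 72.95 to 155.9 (median 113) in 2DCocu. Only the edges of the groups overlapped, and the log2 fold change was -1.11 ± 0.12 (adjusted p = 1.553e-07).

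In the first pair markers of astrocytes were lower as well. The summed level of the 8 astrocyte markers was 261.1 to 371.1 CPM in 3DMono tags and 442.0 to 528.9 in 2DMono tags, with 1 marker higher, 6 lower in 3-D and none at 0. The sums were 259.4 to 418.0 in 3DFusi and 380.3 to 501.4 in 2DCocu, where 1 of 7 markers tested was higher, 2 were lower and the median log2 fold change was 0.07. In 2DProto4Nic, which held the highest CDH6 of all arrangements, the astrocyte sums were 251.0 and 254.5. Their part in the result was not tested on whole tags.

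Of the other type II genes, CDH11 moved in opposite directions in the 2 pairs. CDH11, an adhesion molecule of mesenchymal cells, held 126.4 to 242.5 CPM (median 153) in 3DMono and 144.0 to 359.7 (median 211) in 2DMono. These ranges overlapped widely, and the fold change was -0.64 ± 0.17 on the log2 scale (adjusted p = 0.009751). Between Vehic tags alone it did not pass (-0.52, adjusted p = 0.2106). In 3DFusi it held 205.8 to 633.5 (median 326) against 148.9 to 290.6 (median 202) in 2DCocu, a log2 fold change of 0.70 ± 0.14 (adjusted p = 0.0002754).

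The 8 mesenchymal markers summed to 166.3 to 581.8 CPM in 3DMono and 591.2 to 1601 in 2DMono, with 1 marker higher and 4 lower in 3-D. Their sum was 213.5 to 4353 in 3DFusi and 503.7 to 1806 in 2DCocu, with 3 higher and 1 lower. No mesenchymal marker was at 0 in these arrangements. Their part in the CDH11 result was not tested on whole tags, and the values within mesenchymal-like cells are given further on.

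CDH9, known from hippocampal synapses, and CDH19, known from Schwann cell precursors, were called in the second pair. CDH9 spanned 3.101 to 15.54 CPM (median 8.17) in 3DFusi and 2.018 to 4.889 (median 3.32) in 2DCocu, with overlap and a log2 fold change of 1.29 ± 0.22 (adjusted p = 4.258e-05). CDH19 was scarce: 0.334 to 16.69 CPM (median 4.39) in 3DFusi against 0.5076 to 2.444 (median 1.57) in 2DCocu. Its log2 fold change was 1.88 ± 0.49 (adjusted p = 0.002916), and the lowest 3-D tag lay below every 2-D tag. In the first pair CDH19 was at 1.46 without passing (adjusted p = 0.07088), and the test of the difference between the pairs did not pass for it (adjusted p = 0.9969). The 8 neural crest or Schwann markers summed to 7.453 to 32.74 CPM in 3DFusi and 9.16 to 16.79 in 2DCocu, where FOXD3 was at 0. Of the 7 of them tested, 2 were higher in 3-D, and their part in the CDH19 value was not tested.

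CDH10, a cadherin of neuronal subtypes, was lower in 3-D in both pairs. It held 33.46 to 58.5 CPM (median 41.1) in 3DMono and 60.97 to 93.05 (median 76.9) in 2DMono without overlap, at -1.02 ± 0.14 (log2, adjusted p = 7.364e-05). In the second pair the value was -0.59 ± 0.09 (adjusted p = 1.302e-05), with overlapping tags. CDH24 was higher in 3-D in both, at 1.00 ± 0.21 (12.99 to 36.02 against 7.031 to 19.87 CPM, adjusted p = 0.00196) and 0.88 ± 0.25 (4.615 to 33.26 against 5.816 to 18.65 CPM, adjusted p = 0.005446). Between Vehic tags alone CDH24 did not pass in the first pair (0.55, adjusted p = 0.1611). CDH20 was also called higher in both, at 0.52 ± 0.15 and 0.34 ± 0.12.

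Across the type II group, 3 of 13 were higher and 3 lower in the first pair (median log2 fold change -0.15), and 8 were higher and 3 lower in the second (median 0.35). Of all genes, 38.0% and 48.8% were called, with medians of 0.03 and 0.04. CDH12 and CDH18 passed in the second pair, at 0.28 ± 0.11 and 0.35 ± 0.14, and with the tags summed by number neither did (0.22, adjusted p = 0.1467, and 0.16, adjusted p = 0.4756). The CDH18 call was also lost in 11 of 22 fits that left out a tag and with the tag number as a block (0.28, adjusted p = 0.1122). CDH12 was at 0.32 ± 0.16 in the first pair without passing, and the difference between the pairs passed for neither gene (0.01 with an adjusted p of 0.9858 for CDH12, 0.83 with 0.09087 for CDH18). CDH22 passed in that pair as lower, at -0.64 ± 0.20. CDH5, the endothelial cadherin, and CDH8 passed in neither. CDH5 stayed at or below 2.921 CPM in all tags of the 4 arrangements.

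Of the 5 type I cadherins, 1 was higher and 2 lower in the first pair (median log2 fold change -0.51), and 2 were higher in the second (median 0.26), set against the same shares and medians of all genes. CDH2, the N-cadherin of neural adherens junctions, averaged 718.0 CPM ± 125 (SD, n = 6) in 3DMono and 932.9 ± 82.5 in 2DMono, a log2 fold change of -0.57 ± 0.11 (adjusted p = 0.00104). Its value in the second pair was -0.06 ± 0.12 and did not pass. CDH4, R-cadherin, on chromosome 20 from 61252261 to 61940617, averaged 586.5 ± 124 in 3DMono and 333.7 ± 31.2 in 2DMono. Its tags did not overlap, and it rose by 0.63 ± 0.13 on the log2 scale (adjusted p = 0.002004); the second pair gave 0.26 ± 0.14 without passing.

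CDH1, E-cadherin of epithelia, was scarce in all 4 arrangements. It was called higher in 3DFusi, with 2.297 to 7.367 CPM (median 3.41) against 0.6155 to 2.705 (median 1.61) in 2DCocu, a log2 fold change of 1.07 ± 0.22 (adjusted p = 0.000276). The 8 epithelial markers summed to only 3.542 to 11.72 CPM in 3DFusi and 6.187 to 9.722 in 2DCocu, with KRT5 at 0 in both. CDH3, P-cadherin, was lower in 3DMono (8.073 to 12.47 against 10.37 to 16.0 CPM, -0.51 ± 0.15 log2, adjusted p = 0.01726) and higher in 3DFusi (7.076 to 12.79 against 5.466 to 8.752, 0.33 ± 0.11, adjusted p = 0.01616). With the 3DFusi tags summed by number the latter did not pass (0.28, adjusted p = 0.09207). The CDH3 call in the first pair was lost without 2DMono AcDop tag 2 (-0.40, adjusted p = 0.06321) or 3DMono AcDop tag 2 (-0.43, adjusted p = 0.05124).

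CDH15, the M-cadherin of muscle precursors, passed in neither pair, at 1.06 ± 0.75 and -0.57 ± 0.38. Single tags stood far above the rest. The highest values were 8.483 CPM in 1 3DMono tag, where the others held 0.2506 to 2.325, and 10.55 in 1 3DFusi tag, where the others held 0.4502 to 3.203. In those tags the 8 muscle markers summed to 2562 and 2034 CPM, against 33.51 to 160.8 and 34.77 to 280.4 in the others of the same arrangement. Their part in the CDH15 values was not tested.

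**Figure D2:**
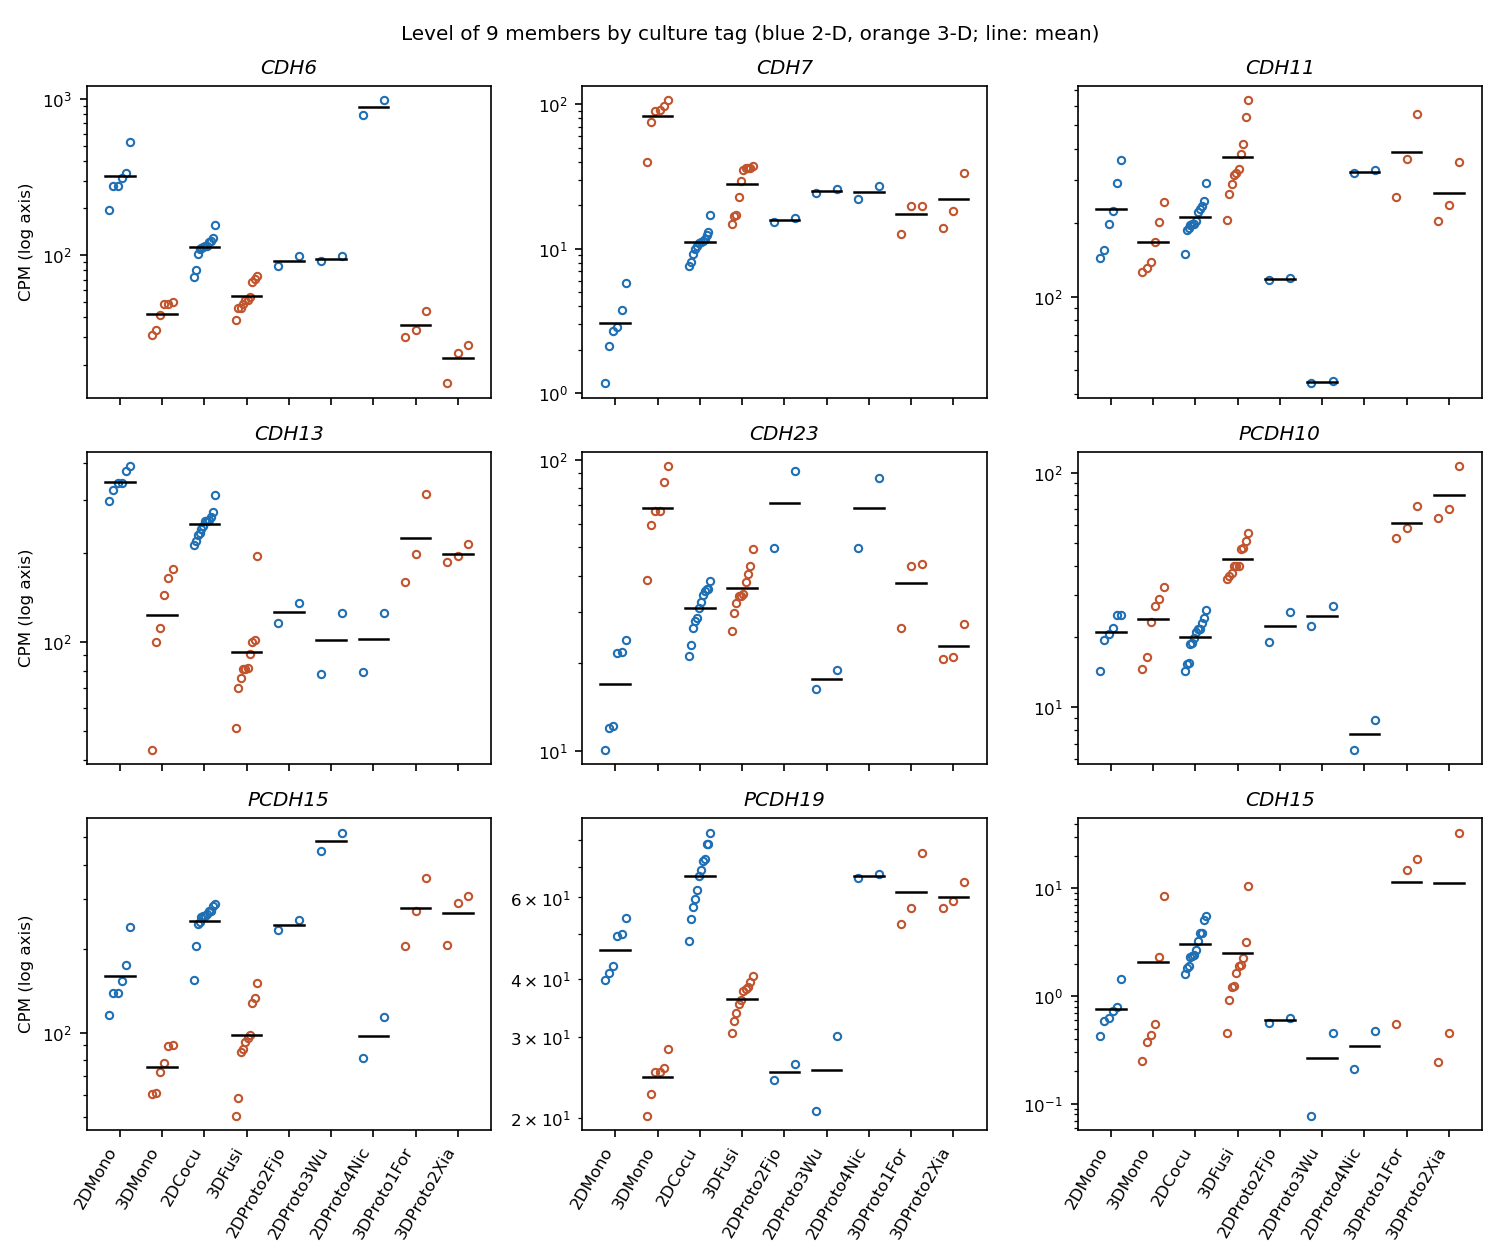
CPM of 9 members (log axis) in each culture tag, by the 9 arrangements; a point is a tag, a line is the mean, blue is 2-D and orange is 3-D. CDH7 in 3DMono (39.78 to 106.9 CPM) lies above all 2DMono points (1.165 to 5.811), and CDH6 shows the opposite order.

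Among the cadherins without the classical cytoplasmic tail or with many extracellular repeats, CDH13 was lower in 3-D in both pairs. CDH13, T-cadherin, is held to the membrane by a lipid anchor; the gene spans 82626969 to 83800640 on chromosome 16. It held 43.32 to 176.1 CPM (median 128) in 3DMono and 298.3 to 390.7 (median 342) in 2DMono, without overlap (log2 -1.69 ± 0.26, adjusted p = 0.0002482). In 3DFusi it held 51.32 to 194.1 (median 81.4) against 212.3 to 311.6 (median 250) in 2DCocu, again without overlap (-1.51 ± 0.17, adjusted p = 1.545e-07).

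CDH23 and PCDH15 together form the tip link of sensory hair cells, and both lie on chromosome 10, at 71396920 to 71815947 and 53802771 to 55627942. CDH23 held 38.79 to 94.91 CPM (median 66.9) in 3DMono and 10.11 to 24.05 (median 17.0) in 2DMono, without overlap (1.83 ± 0.25 log2, adjusted p = 8.042e-05). PCDH15 went the other way in the same tags, with 60.48 to 90.44 (median 75.2) against 115.3 to 239.6 (median 146), also without overlap (-1.26 ± 0.16, adjusted p = 3.159e-05). The tip-link partners thus differed in direction across format in the first pair.

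In the second pair PCDH15 was again lower, with 50.34 to 150.8 CPM (median 94.3) in 3DFusi against 154.3 to 288.9 (median 262) in 2DCocu (-1.46 ± 0.14, adjusted p = 2.744e-08). CDH23 did not pass there, at 0.14 ± 0.11 (25.84 to 49.33 against 21.12 to 38.27 CPM). CDH17, the liver and intestine cadherin, was called lower in the second pair (-0.63 ± 0.19, adjusted p = 0.00897) at 1.182 to 4.912 against 2.87 to 6.396 CPM. It did not pass between Vehic tags alone (-0.41, adjusted p = 0.2366) or in 1 fit over 4 arrangements (-0.63, adjusted p = 0.05789). CDH26 passed in neither.

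Promoter windows from RefSeq (GRCh38.p14), each reaching from 250 bases before to 50 after an annotated start, were matched by symbol to 22 of the 34 members, 35 windows in all. Those of CDH7, CDH23, CDH4 and PCDH15 are shown because these members moved with format and their windows hold an E-box. They were chosen after their values were seen. E-boxes are bound by bHLH factors and, in the form CACCTG or CAGGTG, by ZEB and SNAI factors, several of which repress cadherins. The CDH7 window holds CAGCTG alone. Each gene has 2 windows or, for CDH23, 3, and each window shown lies within the span of its gene. Capitals mark CACCTG or its reverse complement CAGGTG, and CAGCTG, which reads the same on both strands. The windows are chr18:65750762-65751061 on the plus strand for CDH7, chr10:71811633-71811932 on the plus strand for CDH23, chr20:61499171-61499470 on the plus strand for CDH4 and chr10:54801182-54801481 on the minus strand for PCDH15.
CDH7: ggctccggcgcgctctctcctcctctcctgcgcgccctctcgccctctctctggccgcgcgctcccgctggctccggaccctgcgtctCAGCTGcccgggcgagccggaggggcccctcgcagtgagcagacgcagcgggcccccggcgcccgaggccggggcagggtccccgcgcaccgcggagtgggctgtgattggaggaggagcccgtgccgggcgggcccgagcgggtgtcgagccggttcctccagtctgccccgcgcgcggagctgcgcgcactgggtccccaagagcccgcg
CDH23: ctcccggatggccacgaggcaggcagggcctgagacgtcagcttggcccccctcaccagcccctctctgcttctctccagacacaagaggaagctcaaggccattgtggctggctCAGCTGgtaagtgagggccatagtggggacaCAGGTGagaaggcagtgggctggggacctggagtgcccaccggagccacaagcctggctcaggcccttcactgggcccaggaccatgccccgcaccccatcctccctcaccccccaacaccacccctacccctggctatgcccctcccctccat
CDH4: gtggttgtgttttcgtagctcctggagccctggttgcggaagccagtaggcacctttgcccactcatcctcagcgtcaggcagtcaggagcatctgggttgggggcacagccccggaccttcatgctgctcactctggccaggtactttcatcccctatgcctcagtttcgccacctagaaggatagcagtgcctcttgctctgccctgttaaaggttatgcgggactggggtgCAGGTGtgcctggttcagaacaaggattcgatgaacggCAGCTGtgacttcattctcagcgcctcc
PCDH15: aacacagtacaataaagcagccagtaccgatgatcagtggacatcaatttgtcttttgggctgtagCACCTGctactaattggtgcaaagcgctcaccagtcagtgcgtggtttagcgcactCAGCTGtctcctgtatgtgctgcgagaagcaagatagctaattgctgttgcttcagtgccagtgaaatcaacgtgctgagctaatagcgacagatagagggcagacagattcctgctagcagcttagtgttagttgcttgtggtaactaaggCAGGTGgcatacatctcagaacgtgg

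CACCTG or CAGGTG occurred in 20.6% of all 35116 promoter windows and in 4 of the 35 member windows, or 11.4% (CDH23, CDH4, PCDH1 and PCDH15). CAGCTG occurred in 17.9% of all windows and in 9 of the 35, or 25.7% (CDH12, CDH18, CDH23, CDH4, CDH7, CDH8, CDH9, PCDH1 and PCDH15). Either motif occurred in 34.5% of all windows and in 25.7% of the member windows. The GC content was 78.3% in the CDH7 window, 66.0% for CDH23, 57.3% for CDH4 and 48.0% for PCDH15. A match is a description of the letters, not a site.

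The 4 delta-1 protocadherins passed in the first pair, in which 38.0% of all genes did. PCDH7, a protocadherin first known from brain and heart, held 194.9 to 524.2 CPM (median 255) in 3DMono and 563.2 to 735.5 (median 631) in 2DMono without overlap, at -1.33 ± 0.21 (adjusted p = 0.0002012). PCDH9 was lower as well, at -0.39 ± 0.10. PCDH11X was higher, at 0.67 ± 0.13, with 242.1 to 428.9 against 131.8 to 205.4 CPM; reads of this gene can be shared with a near-identical copy, so its counts are uncertain.

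PCDH1, the fourth delta-1 gene, held 8.937 to 23.15 CPM in 3DMono and 5.114 to 9.778 in 2DMono, at 0.77 ± 0.23 (adjusted p = 0.01743). Its call was lost without 2DMono AcMor tag 2 (0.69, adjusted p = 0.05644) and between Vehic tags alone (0.10, adjusted p = 0.8389). In the second pair PCDH7 and PCDH9 were again lower, at -0.58 ± 0.11 and -0.37 ± 0.16, while PCDH1 and PCDH11X did not pass, at 0.37 ± 0.16 and -0.18 ± 0.14. The PCDH9 call lay at the threshold (adjusted p = 0.04973): it was lost in 17 of 22 fits that left out a tag and with the tags summed by number (-0.35, adjusted p = 0.07318).

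Of the delta-2 protocadherins, which bind the WAVE actin-regulating complex, PCDH19 fell in both pairs. PCDH19, the X-linked gene of a clustering epilepsy, spans 100291644 to 100410273 on chromosome X. It held 20.21 to 28.15 CPM (median 25.2) in 3DMono and 39.75 to 54.07 (median 46.1) in 2DMono, at -1.11 ± 0.12 (adjusted p = 8.644e-06). In 3DFusi it held 30.47 to 40.64 (median 36.9) and in 2DCocu 48.3 to 82.93 (median 67.9), at -0.95 ± 0.08 (adjusted p = 1.905e-09). No tags overlapped in either pair.

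PCDH10, a homophilic protocadherin of developing axon tracts, was called in the second pair alone. It held 35.28 to 55.05 CPM (median 40.1) in 3DFusi and 14.23 to 25.92 (median 20.3) in 2DCocu, without overlap (1.04 ± 0.10, adjusted p = 1.364e-08). In the first pair the ranges were 14.52 to 32.39 and 14.23 to 24.74, with a log2 fold change of -0.02 ± 0.21. All 8 GABAergic neuron markers were higher in 3-D in the second pair, with sums of 51.98 to 469.7 CPM in 3DFusi and 34.31 to 87.13 in 2DCocu, and their part in this result was not tested on whole tags. PCDH17 was higher in the second pair, at 0.48 ± 0.12 (adjusted p = 0.001969), and PCDH8 and PCDH18 passed in neither.

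The remaining protocadherins were scarce apart from PCDH15. PCDH12, known from endothelium, was called higher in 3DMono (4.923 to 7.862 against 2.843 to 4.24 CPM, 0.70 ± 0.19, adjusted p = 0.008238) and did not pass in the second pair (0.37 ± 0.18). Between Vehic tags alone it did not pass in the first pair either (0.70, adjusted p = 0.2143). PCDH20 was under the count filter in the first pair and did not pass in the second (-0.15 ± 0.29).

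Counted over both pairs, CDH7, CDH20 and CDH24 were higher in 3-D in each, and CDH6, CDH10, CDH13, PCDH7, PCDH9, PCDH15 and PCDH19 were lower in each, PCDH9 with a call at the threshold in the second. CDH3, whose calls were not made in several alternatives above, and CDH11 were lower in the first and higher in the second. Neither pair called CDH5, CDH8, CDH15, CDH26, PCDH8 or PCDH18. These counts alone do not test whether the pairs differ. Of all genes, 8297 of 21862 were called in the first pair and 10987 of 22511 in the second. The share called alike in both is not given, so the tally cannot be set against it.

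The difference between the 2 format differences was tested on AcMor and Vehic tags, which all 4 arrangements had. It passed for 12 members, 9 with a higher value in the second pair and 3 with a lower one, against 9.98% of 23331 genes (5.91% higher and 4.06% lower). The log2 difference, second pair minus first, was -2.91 for CDH7 (adjusted p = 0.0003821), -1.79 for CDH23 (adjusted p = 0.0003583) and 1.66 for CDH6 (adjusted p = 3.792e-05). For CDH7 and CDH6 the difference was thus one of size, since both pairs went the same way.

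CDH11 differed by 1.08 (adjusted p = 0.006466), PCDH10 by 1.08 (adjusted p = 0.007778) and CDH1 by 2.11 (adjusted p = 0.003962). PCDH17 differed by 0.92 (adjusted p = 0.01875), CDH9 by 1.65 (adjusted p = 0.03358) and CDH3 by 0.68 (adjusted p = 0.03081). The last 3 calls were lost in 1, 7 and 5 of 22 fits that left out a tag. CDH15 (-2.56), PCDH18 (0.71) and PCDH20 (1.62) also passed, but their calls were lost in 11, 17 and 18 of the 22. Only 7 of the 12 calls were made without 2DMono Vehic tag 2 or without 3DMono Vehic tag 2. Vehic tags alone gave 3, against 2.096% of all genes.

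The arrangements without a treatment in their name extended some ranges, and format was not tested between them. CDH6 held 790.0 and 984.4 CPM in the 2 tags of 2DProto4Nic, above every tag of the other arrangements, whose highest was 529.6. PCDH15 held 447.9 and 520.7 in 2DProto3Wu, where CDH11 was at 44.24 and 45.43. PCDH10 was higher in 3DProto1For (52.49 to 72.08) and 3DProto2Xia (64.27 to 106.3) than in 2DCocu or 2DMono. CDH7 held 12.73 to 33.68 CPM over these 5 arrangements, below every 3DMono tag and above every 2DMono tag. Not every format difference of the pairs was seen here. CDH13 held 158.7 to 314.8 in 3DProto1For and 186.5 to 213.0 in 3DProto2Xia, above every 2DProto tag (78.13 to 135.2). PCDH19 held 52.55 to 75.05 in the 3DProto tags, 20.65 to 30.08 in 2DProto2Fjo and 2DProto3Wu, and 66.04 and 67.3 in 2DProto4Nic. CDH23 held 49.69 to 91.82 in 2DProto2Fjo and 2DProto4Nic. CDH6 was lower in every 3DProto tag (15.14 to 43.77) than in every 2DProto tag.

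Some of these tags stood apart for 1 member. CDH15 held 14.71 and 18.83 CPM in 2 tags of 3DProto1For and 0.5518 in the remaining one, where the muscle markers summed to 2159, 2694 and 57.23. In 3DProto2Xia it held 33.02 in 1 tag, with a muscle sum of 5743, and 0.2471 and 0.4507 in the others, with sums of 47.22 and 46.23. In these 6 tags CDH15 was high where the muscle sum was high. The 2DCocu tags held 1.621 to 5.578 CPM of CDH15 with muscle sums of only 29.82 to 48.15. A link between the 2 was not tested. In 3DProto1For, CDH1 reached 30.96 in tag 1 (7.178 and 3.45 in the others) and CDH19 reached 30.61 in tag 2 (2.455 and 0.0 in the others).

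Cells were grouped by clustering without any cadherin or protocadherin gene, and a cluster was named from fixed markers of other genes. Of all cells, 14204 (32.51%) stayed in clusters without a name. Levels were then taken per tag and class with at least 20 cells, in 17 class-by-format columns. These levels describe the clusters and carry no test, and "highest" here is among the named classes only. Pooled over tags, the highest single cluster had no name for 11 of the 34 members.

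CDH11 was highest in mesenchymal-like cells in both formats, with a median over tags of 1022 CPM in 2-D (720.9 to 1521, 10 tags) and 946.0 in 3-D (712.2 to 1414, 18 tags). The next class, astrocyte-like cells in 2-D, had a median of 333.9 (133.1 to 426.7). CDH6 had its highest class median in those astrocyte-like cells, at 367.0 (217.5 to 693.2, 18 tags), above the choroid plexus-like columns at 134.2 and 120.2. Pooled over tags, the 2 clusters named astrocyte-like held 411.6 (cluster 6, with 4 of 8 astrocyte markers and none among its top 10 genes) and 224.2 (cluster 35, led by GFAP and AQP4 among others). CDH6 was higher in unnamed clusters 27 (1614), 34 (767.5) and 13 (489.7) and in cluster 39, named mesenchymal-like (607.2). Clusters 27, 34 and 39 were made up mainly of 2DProto4Nic cells. CDH7 was highest in excitatory neuron-like cells in 3-D, at 215.0 (2.299 to 315.4, 18 tags), and stood at 8.489 (0.1717 to 53.79, 22 tags) in those of 2-D.

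CDH20 was highest in GABAergic neuron-like cells in 2-D, at 678.4 CPM (24.11 to 1558, 12 tags), followed by cycling-like (439.4) and progenitor-like (435.7) cells in 3-D. CDH22 was also highest in 2-D GABAergic neuron-like cells (52.01), and CDH2 was highest in those of 3-D (1117) and lowest in muscle-like cells (135.1). CDH15 was highest in muscle-like cells, at 118.3 (109.5 to 141.9, 4 tags), with no overlap with the next class at 7.745. PCDH7 had its highest median there too, at 1244.

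The neuron-like class, a cluster led by RELN and LHX1, held the highest median among named classes for many members. In 2-D these were CDH9 (45.62), CDH10 (181.4), CDH12 (918.5), CDH18 (624.5), PCDH1 (51.66) and PCDH15 (583.7). In 3-D they were CDH4 (1037), PCDH10 (76.97), PCDH11X (993.2) and PCDH19 (82.0), and also PCDH20 (9.928, 6.215 to 11.1), which did not overlap with the next column (1.117 to 6.195). CDH8 (176.2), PCDH9 (1577) and CDH24 (37.09) were highest in intermediate progenitor-like cells among the named classes. Pooled over tags, PCDH15 reached 873.6 in unnamed cluster 16, PCDH19 212.8 in unnamed cluster 40 and CDH8 291.8 in unnamed cluster 24.

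Mesenchymal-like cells in 3-D held the highest medians of PCDH18 (53.3), PCDH12 (10.82) and CDH19 (11.75), and those in 2-D that of CDH13 (507.5). CDH1 (9.516) and PCDH17 (62.01) were highest in ciliated or ependymal-like cells of 3-D, and PCDH8 (9.253) in excitatory neuron-like cells of 2-D. CDH3 (17.59, 1.033 to 86.79) and CDH17 (11.46, 0.0 to 13.72) were highest in choroid plexus-like cells of 2-D, with 4 tags. In pooled counts CDH3 was 31.31 in excitatory neuron-like cluster 19 and 17.24 in choroid plexus-like cluster 12, and CDH17 was 9.941 and 5.989. CDH23 (73.35) was highest in cycling-like cells of 2-D, a level that fell at a coarser resolution, as given further on. Pooled over tags, clusters 29 and 14 of the ciliated or ependymal-like class differed. CDH1 was 21.59 in cluster 29 and 5.831 in cluster 14, and PCDH17 was 41.58 and 125.1. CDH5 and CDH26 stayed under 5 in every column. Apart from CDH15 and PCDH20, the highest and the next column overlapped for each of the 32 members named. At a coarser clustering resolution 14 of the 32 kept the same highest class, with at least 50 cells per tag and class 23 did, and without called doublets all 32 did.

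**Figure D3:**
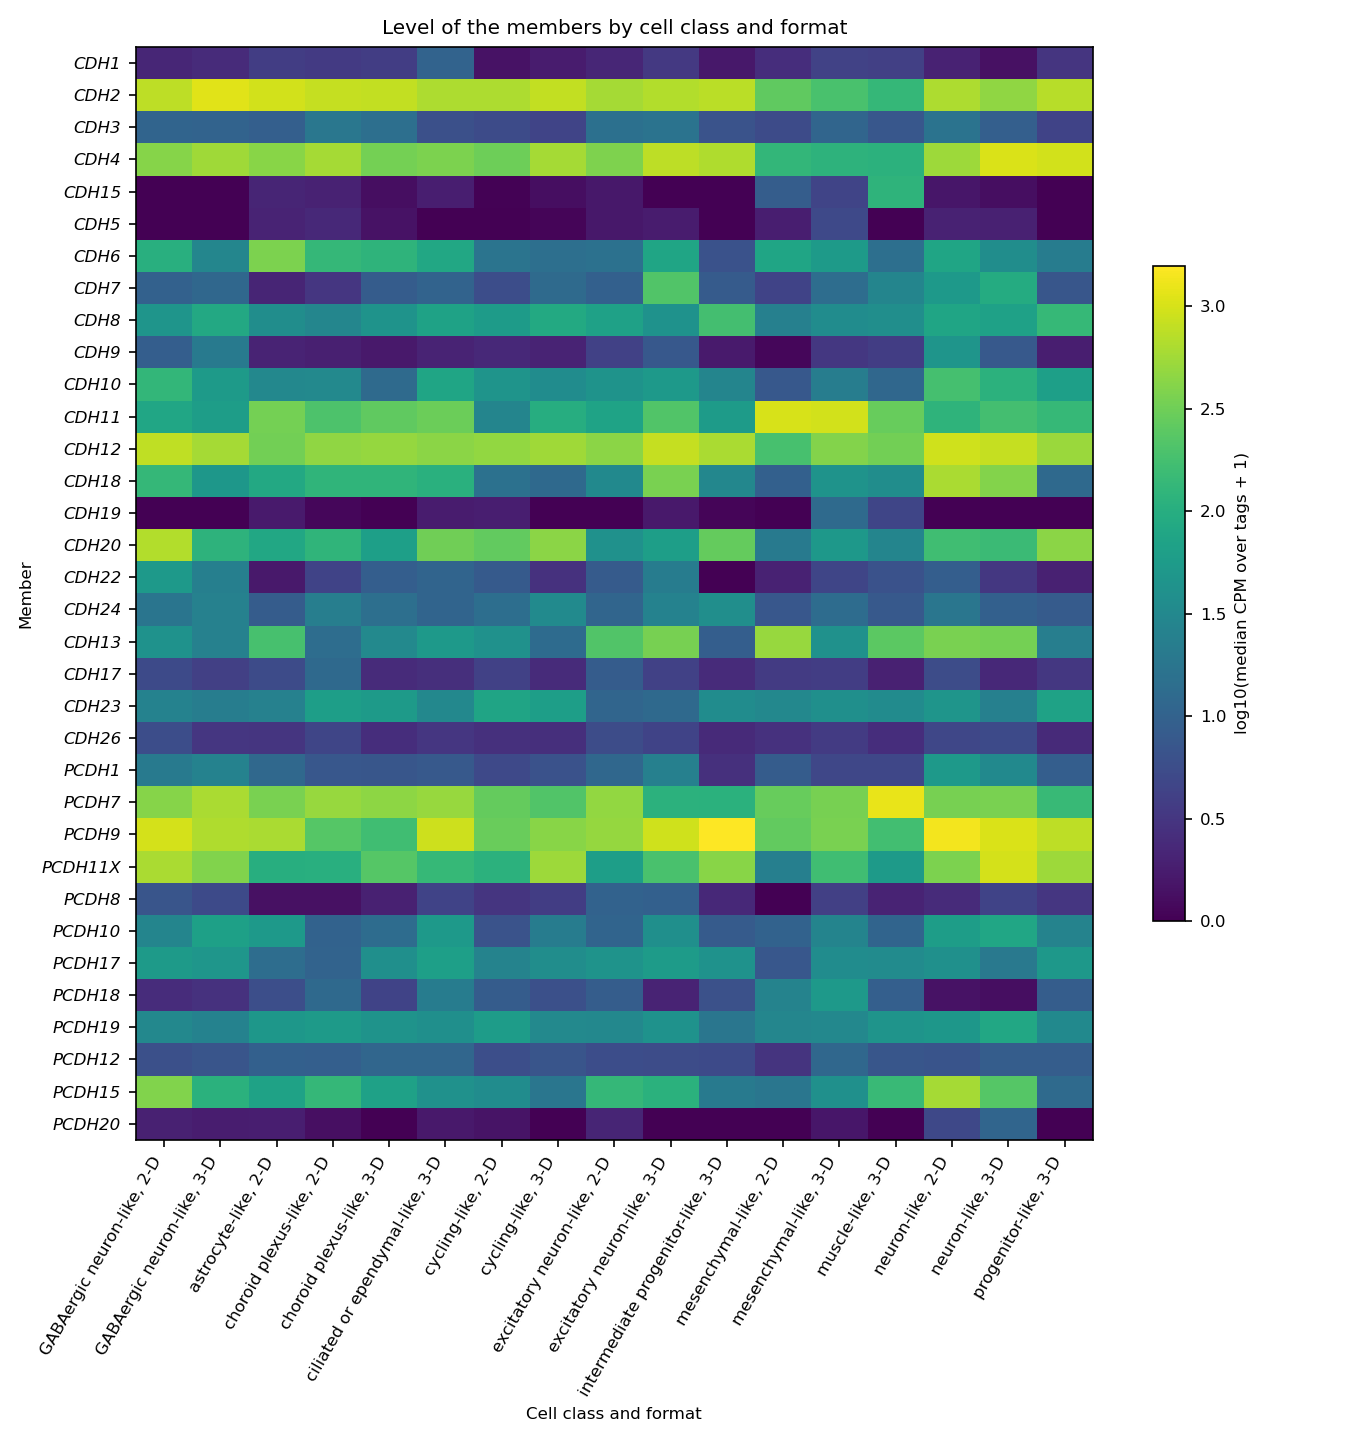
Heat map of log10(median CPM over tags + 1) for the 34 members (rows) in 17 class-by-format columns. CDH15 is bright in the muscle-like column alone (118.3 CPM) and CDH11 in both mesenchymal-like columns (1022 and 946.0).

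Format was then compared within the classes that kept at least 3 tags in each arrangement. Same-number 3DFusi tags varied together (9 of 9 correlations above 0.1, 0.139 to 0.567), and no class fit summed or blocked them. The class p-values of the second pair treat these tags as independent and may be too small. Excitatory neuron-like cells of 3DMono gained CDH7 and CDH18 and held less PCDH7 and CDH8 than those of 2DMono. In 3DFusi against 2DCocu the same class had higher CDH18, CDH7, PCDH10, CDH6 and PCDH11X. The class was made of different clusters in the 2 formats: cluster 0, led by GPR139, SEMA3C and UNC5D, held 99.5% of it in 2DMono and 99.3% in 2DCocu, and cluster 1, led by NEUROD2, KLHL1 and OPCML among others, held 99.4% in 3DMono and 93.1% in 3DFusi.

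In excitatory neuron-like cells of the first pair 16 of 28 members tested passed, 11 higher and 5 lower, against 30.4% of all genes (15.6% higher and 14.8% lower). CDH7 held 211.8 to 315.4 CPM (mean 263.6 ± 36.5 SD, n = 6) in 3DMono and 0.1717 to 7.944 (mean 3.893 ± 3.10, n = 6) in 2DMono. The groups lay far apart, with a log2 fold change of 5.76 ± 0.23 (adjusted p = 3.782e-13). CDH18, a type II cadherin of the nervous system, held 116.4 to 393.2 against 15.35 to 51.0 CPM (3.03 ± 0.28, adjusted p = 2.75e-06).

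PCDH7 held 32.93 to 103.6 CPM against 384.4 to 679.2 (-2.93 ± 0.25, adjusted p = 1.424e-06), and CDH8, patterned across cortex and striatum, 20.83 to 41.65 against 130.4 to 280.8 (-2.82 ± 0.24, adjusted p = 4.899e-07). Neither overlapped. PCDH18 was scarce and overlapped, with means of 0.582 and 5.95 CPM (log2 -3.26). Its 3DMono mean was near the floor of counts, so its test is not given as support. CDH6, which was lower in whole 3DMono tags, was higher in this class, at a mean of 75.48 against 15.83 CPM (log2 2.21). At the coarser resolution 14 of 30 members passed in this class, 4 higher and 10 lower, against 33.78% of all genes, with CDH7 at 4.99, CDH18 at 0.94 and PCDH7 at -3.05.

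In excitatory neuron-like cells of 3DFusi against 2DCocu 17 of 24 members passed, 16 of them higher, against 42.2% of all genes (21.7% higher and 20.6% lower). Their median log2 fold change was 1.06, against 0.02 over all genes. CDH18 held 322.2 to 1686 CPM (mean 842.6 ± 445 SD, n = 10) and 11.51 to 62.97 (mean 30.36 ± 17.3, n = 12), without overlap (4.84 ± 0.30, adjusted p = 7.262e-11). CDH7 held 20.91 to 309.4 against 3.694 to 16.49 (4.16 ± 0.35, adjusted p = 6.262e-09). CDH6 held 38.3 to 132.5 against 6.223 to 18.45 (2.58 ± 0.19, adjusted p = 1.807e-11). None of the 3 overlapped.

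PCDH10 (2.63 ± 0.32) and PCDH11X (1.85 ± 0.28) were higher with overlapping tags. PCDH7 was the 1 member lower, at a mean of 160.8 against 502.3 CPM (-1.59). At the coarser resolution CDH18 was 2.73, CDH7 3.43, PCDH10 2.39 and CDH6 0.89, all still called.

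In GABAergic neuron-like cells, testable in the first pair, 12 of 24 members passed, 2 higher and 10 lower, against 21.5% of all genes (8.23% higher and 13.3% lower). Cluster 26 held 85.5% of this class in 2DMono and cluster 2 held 97.4% in 3DMono. CDH20 held 76.05 to 305.3 CPM in 3DMono and 589.0 to 847.3 in 2DMono (-2.34 ± 0.25, adjusted p = 1.426e-05), and PCDH15 44.64 to 143.3 against 253.0 to 522.3 (-2.09 ± 0.22, adjusted p = 2.974e-06). Neither overlapped. CDH6 was lower here, at 13.38 to 48.61 against 61.33 to 144.6 (-1.82 ± 0.24). CDH18 (-2.08 ± 0.47) and CDH11 (-1.55 ± 0.36) were lower with overlap, and CDH18 did not pass without the filter on low counts (adjusted p = 0.05601).

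CDH18 was therefore called higher in excitatory neuron-like and lower in GABAergic neuron-like cells of the same pair, and did not pass over whole tags (-0.53 ± 0.20, adjusted p = 0.05707). CDH6 showed the same split between these classes. The difference between classes was not tested.

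In cycling-like cells 17 of 24 members passed in the first pair (7 higher and 10 lower, against 27.5% of all genes with 13.3% higher and 14.2% lower) and 16 of 23 in the second (12 higher and 4 lower, against 35.8% with 17.8% higher). Cluster 10 held 70.6% of the class in 2DMono and 97.7% in 2DCocu, and also passed 4 intermediate progenitor markers. Cluster 7 held 51.7% in 3DMono and 71.9% in 3DFusi, and also passed 5 GABAergic markers. In the first pair CDH23 held 72.92 to 242.7 against 21.95 to 53.62 CPM (1.98 ± 0.26) and PCDH15 4.331 to 23.24 against 43.69 to 197.0 (-2.56 ± 0.50), both without overlap. CDH17 (-2.64 ± 0.46), CDH22 (-2.22 ± 0.49) and CDH7 (2.11 ± 0.46) passed with overlap. At the coarser resolution 9 of 22 members passed in this class in the first pair, 5 higher and 4 lower, against 12.88% of all genes. The second pair gave no value. A coarser cluster that shares the leading genes NEUROD4 and FST with cluster 10 was named intermediate progenitor-like, so the class name depends on the resolution.

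In cycling-like cells of the second pair PCDH10 held 17.63 to 40.28 against 0.7162 to 14.44 CPM (2.65 ± 0.33, adjusted p = 4.134e-07). CDH11 held 78.47 to 204.4 against 10.59 to 37.9 (2.41 ± 0.20, adjusted p = 5.9e-10), and PCDH11X 218.8 to 663.1 against 57.87 to 174.2 (2.08 ± 0.22, adjusted p = 5.161e-07). None of the 3 overlapped. CDH22 (-2.18 ± 0.51) and CDH7 (1.64 ± 0.45) passed with overlap. CDH11 was also called higher in 3-D cycling-like cells of the first pair (0.61), where the whole-tag value was lower, but not at the coarser resolution (-0.03, adjusted p = 0.9666).

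In mesenchymal-like cells of 3DFusi against 2DCocu (9 against 7 tags) 16 of 31 members passed, 13 higher and 3 lower, against 36.6% of all genes (19.6% higher and 16.9% lower). Cluster 31, led by CMKLR1 and COL6A3 and passing 3 endothelial markers, held 91.1% of the class in 2DCocu, and cluster 8, led by IGF2, SULT1E1 and OSR2, held 47.3% in 3DFusi. CDH13 held 7.954 to 155.5 CPM in 3DFusi and 382.3 to 1119 in 2DCocu, without overlap (-4.02 ± 0.43, adjusted p = 2.762e-06). CDH10 (12.96 to 66.88 against 0.9005 to 9.928, 2.16 ± 0.46) and PCDH17 (24.54 to 51.2 against 1.801 to 19.32, 2.13 ± 0.30) were higher without overlap.

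CDH19 had no count in the 7 2DCocu tags of this class and 0.0 to 65.75 CPM (mean 21.56) in the 9 of 3DFusi. Against a floor of 3 counts over the 2DCocu group, or 0.3974 CPM, the 3DFusi mean was at least 54.25-fold higher. That fold is of the mean and leaves out the spread between tags. Pooled over tags, CDH19 was 0.0 in cluster 31 and 25.31 in cluster 8. CDH19 met the count filter only through the 3DFusi tags, so neither its test nor this fold is given as support. PCDH8 had a log2 fold change of 2.76 ± 0.96 and passed. Of the 16 fits that left out a tag, 13 gave it a value, and the call was lost in 7 of these. Its median over the 2-D tags of this class was 0.0 CPM, at the floor of counts, so its test is not given as support. CDH11 did not pass within the class, at means of 1103 and 972.9 CPM (-0.08). With at least 50 cells per tag, 7 of 32 members passed in this class, against 16.71% of all genes.

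**Figure D4:**
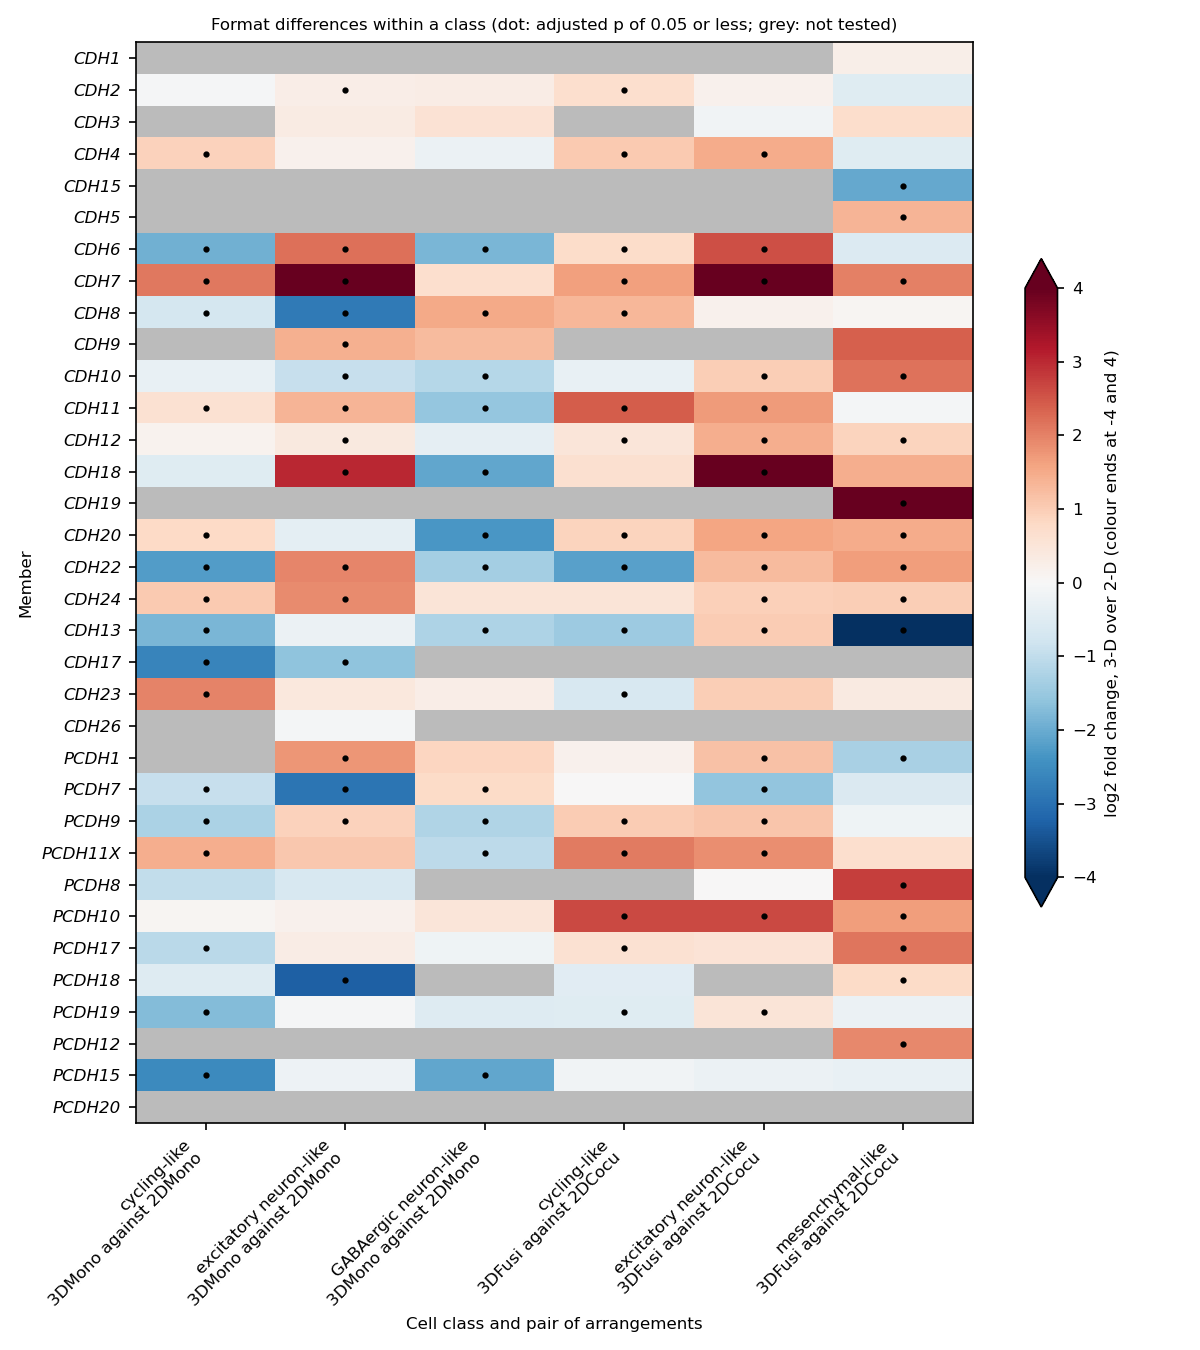
Heat map of the log2 fold change of 3-D over 2-D within a class for 34 members and 6 class comparisons (colours end at -4 and 4, a dot marks an adjusted p of 0.05 or less, grey was not tested). CDH7 is red in both excitatory neuron-like columns (5.76 and 4.16), and CDH13 is blue in the mesenchymal-like column (-4.02).

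Treatment was compared with Vehic within the 4 arrangements that carried it, 8 contrasts in all. By edgeR with the filter on low counts, PCDH8, a delta-2 protocadherin induced by neuronal activity, was the 1 member that passed, in 1 of them. In 2DCocu it held 3.125, 4.613, 3.276 and 4.775 CPM in the 4 AcMor tags and 1.594, 2.363, 1.822 and 1.047 in the 4 Vehic tags. Every AcMor tag was above every Vehic tag, at a log2 fold change of 1.30 ± 0.29 (adjusted p = 0.04424), in a contrast that called 0.975% of all genes. The call was lost in 7 of the 8 fits that left out an AcMor or Vehic tag. DESeq2 gave PCDH8 no adjusted p and called 0 members in this contrast. With AcCoc in the same arrangement PCDH8 was at 0.99 with an adjusted p of 0.05541, so it did not pass. For AcMor in the other arrangements PCDH8 did not pass either, at 1.53 in 2DMono (9.581 and 14.61 against 5.101 and 1.79 CPM, adjusted p = 0.7743), 1.28 in 3DMono (11.47 and 1.883 against 3.352 and 2.793, adjusted p = 0.6827) and -0.11 in 3DFusi (means 3.502 against 3.939). Without the filter on low counts it passed for AcMor in 2DMono (adjusted p = 0.02695) and 3DMono (adjusted p = 0.04699), and for AcCoc in 2DCocu (adjusted p = 0.03351).

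In AcCoc against Vehic in 2DCocu none of 34 members passed edgeR's test, while 6.1% of all genes did (3.6% higher and 2.5% lower). There, 10 members had an unadjusted p under 0.05, as did 22.1% of all genes. DESeq2 called 3 members in this contrast and 9.642% of all genes; the members were CDH15 and PCDH19 as lower and PCDH8 as higher. The remaining 6 contrasts called no member and 0.0% of all genes by edgeR. Members with an unadjusted p under 0.05 numbered 2 for AcCoc and 0 for AcMor in 3DFusi, where 1.66% and 0.7475% of all genes did so. They numbered 3 for AcDop and 5 for AcMor in 2DMono (2.405% and 6.423% of all genes), and 3 for AcDop and 4 for AcMor in 3DMono (3.347% and 8.706%). DESeq2 called none in 3DFusi or 2DMono.

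CDH24 was the 1 member that DESeq2 called in 3DMono, a type II cadherin named here after its values were seen. Its tags held 30.03 and 24.95 CPM with AcDop, 36.02 and 32.24 with AcMor and 12.99 and 13.54 with Vehic. Both Vehic tags lay below all 4 treated tags. By edgeR the log2 fold changes were 1.06 ± 0.21 (adjusted p = 0.9997) and 1.46 ± 0.21 (adjusted p = 0.1394) and did not pass, and by DESeq2 the adjusted p was 0.03645 and 5.945e-06. With edgeR and no filter on low counts CDH24 passed for AcDop (adjusted p = 0.007526) and AcMor (adjusted p = 2e-06), and with the tag number as a block it passed for AcMor (adjusted p = 0.03064). Simulated log2 changes of 1 in AcDop against Vehic in 2DMono were recovered in 24% of cases, so changes of that size could be missed there with 2 tags a group. The treatment contrasts of 3DMono were not simulated.

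The proteins that link cadherins to the cell interior were counted from lists, against all genes, of which 38.0% were called for 3DMono and 48.8% for 3DFusi, with medians of 0.03 and 0.04. Of 11 catenins and linked actin binders, 6 passed in the first pair (1 higher, 5 lower) and 7 in the second (3 higher, 4 lower), with median log2 fold changes of -0.10 and -0.15. Vinculin (VCL), an actin linker, was lower in 3-D in both, at means of 152.2 against 509.3 CPM (-1.93) and 240.9 against 362.6 (-0.65). CTNNA2, the neuronal alpha-catenin, was lower in both, at -0.45 and -0.63. CTNND1 had the largest change of the second pair, higher at 0.80, and did not pass in the first (0.04). CTNNA3 was higher in both, at 0.55 and 0.63.

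Of 10 tested genes of the WAVE complex, 5 passed in the first pair (3 higher, 2 lower) and 4 in the second (1 higher, 3 lower), with medians of -0.12 and 0.02. NCKAP1 was lower in both, at -0.32 and -0.36. Of 7 transcription factors known to repress cadherins, 4 passed in each pair, 1 higher and 3 lower in the first and 3 higher and 1 lower in the second (medians 0.02 and 0.45). ZEB1 was lower in both (-0.76 and -1.24), TWIST1 higher in both (1.87 and 1.60), and SNAI2 lower in the first (-2.10) and higher in the second (0.74). TWIST1 is itself one of the mesenchymal markers.

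Of 7 tested sheddase and gamma-secretase genes, which cut cadherins at the membrane, 2 passed as lower for 3DMono and 3 for 3DFusi, while the remaining 5 and 4 did not pass. Its medians were -0.19 and -0.13. PSEN2 (-0.61 and -1.28) and ADAM17 (-0.47 and -0.35) were lower in both. Of 4 tested nectin and afadin genes, which form the neighbouring adhesion system, 2 were lower in each pair (medians -0.20 and -0.18). NECTIN3 was lower in both, at -0.38 and -0.30.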

How the data were processed

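Cells of 46 culture tags were read from 1 deposited matrix of expected counts per gene and cell; per the submitters' processing notes Salmon 1.7.0, alevin, Seurat 4.1.1 and the hg38 build were used. The annotation and the treatment of unspliced and multi-gene reads are not given in sources used here. Members and gene lists were chosen with earlier results of these data known.

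Counts were summed per tag (3624668 to 58777178 in all), or per tag and class, and rounded. The test was edgeR 4.0.16 (R 4.3.3, limma 3.58.1, TMM, filterByExpr, robust quasi-likelihood fit, treatment as a term in format comparisons) with Benjamini-Hochberg adjustment over all genes at 0.05. The SE is the size of the log2 fold change over the square root of F. Alternatives were RLE factors, no filter on low counts, DESeq2 1.42.0, no called doublets, a replicate block, 1 fit over 4 arrangements, Vehic tags alone, each tag left out, another Leiden resolution and 50 cells. Summing 3DFusi tags by number was added after seeing the data, in a fit without a term for treatment. Of simulated log2 changes of 1, 70% were recovered in the first format pair and 85% in the second.

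Cells were clustered on 2000 variable genes without CDH or PCDH genes (30 components, 20 neighbours, leidenalg 0.10.2, resolution 0.8 or 0.4, 41 or 26 clusters). A name needed 3 markers and 40% of its list, each in 10% of cells and at 2 times the level elsewhere, a rule set after the clusters were seen. Called doublets (1220 cells, 2.8%) were kept. Full values went to the 10 called members with the largest fold changes in each format comparison, to members called in opposite directions, and to 5 per class or treatment comparison. Correlations of the deviations of same-number tags were all above 0.1 in 3DFusi (9 of 9, 0.139 to 0.567). In 3DMono 4 of 6 were (0.062 to 0.239), in 2DMono 2 of 6 and in 2DCocu 1 of 12. With 2 tags a treatment, as in 3DMono and 2DMono, each correlation is counted 2 times by construction.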

Additional observations from a re-analysis of the deposited data

Results flagged for a closer look

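In 7 of 62 groups of 4 to 10 tags, over 20 members, 1 tag stood apart from the others; chance does this in about 1 of 20 groups. CDH1 held 6.974 CPM in 3DMono AcDop tag 1, where the others held 1.582 to 2.988. CDH13 held 194.1 in 3DFusi Vehic tag 1, against 51.32 to 101.3. CDH9 held 19.13 in 2DMono Vehic tag 2, against 3.328 to 6.421. PCDH20 held 0.1086 in 3DMono AcMor tag 2, against 0.1887 to 0.2239.

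CDH15 stood apart in 3 arrangements: 1.43 CPM in 2DMono AcMor tag 2 (others 0.4262 to 0.7956), 8.483 in 3DMono Vehic tag 2 (others 0.2506 to 2.325) and 10.55 in 3DFusi AcCoc tag 2 (others 0.4502 to 3.203). The 8 muscle markers summed to 451.3, 2562 and 2034 CPM in those tags, against 39.82 to 63.1, 33.51 to 160.8 and 34.77 to 280.4 in the others. Their part in the CDH15 values was not tested.

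The format difference of 12 members differed between the 2 pairs by a test of the difference itself, with the share of all genes given above. On the log2 scale, the second pair minus the first was 2.11 for CDH1, 0.68 for CDH3, -2.56 for CDH15, 1.66 for CDH6, -2.91 for CDH7 and 1.65 for CDH9. It was 1.08 for CDH11, -1.79 for CDH23, 1.08 for PCDH10, 0.92 for PCDH17, 0.71 for PCDH18 and 1.62 for PCDH20. The calls of CDH15, PCDH18 and PCDH20 were lost in 11, 17 and 18 of 22 fits that left out a tag. Those of CDH3, CDH9 and PCDH17 were lost in 5, 7 and 1. Vehic tags alone gave 3 members, against 2.096% of all genes. PCDH20 was under the count filter in the first pair, at means of 0.1902 and 0.4201 CPM. What else differed between the pairs is not in the labels, so the pair and any such factor cannot be told apart.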

How the results depend on the processing

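No member called over whole tags changed its direction under the alternatives run. Within classes 5 called members did at Leiden resolution 0.4: CDH11 (-0.03) and PCDH7 (0.14) in cycling-like and CDH9 (-1.62) in excitatory neuron-like cells of the first pair, and CDH13 (-0.09) and CDH22 (-0.03) in the latter class of the second; CDH9 alone passed there. The counts of members called outside 1.5 times the reported value were these. Vehic tags alone gave 13 in 3DFusi against 2DCocu (28.12% of all genes) and 3 for the difference between the pairs (2.096%). No filter on low counts gave 7 for that difference (3.701%). Without the filter the count was 2 for AcCoc in 2DCocu (2.966% of all genes), 1 for AcMor in 2DMono (0.4526%), 1 for AcDop in 3DMono (0.3511%) and 4 for AcMor in 3DMono (1.809%). DESeq2 gave 3 for AcCoc (9.642% of all genes) and 0 for AcMor (3.447%) in 2DCocu, and 1 for AcDop (0.09045%) and 1 for AcMor (0.805%) in 3DMono. A single fit over 4 arrangements gave 0 for AcMor in 2DCocu (0.0% of all genes). At Leiden resolution 0.4, cycling-like cells of the first pair gave 9 (12.88% of all genes) and those of the second pair no value. With at least 50 cells, mesenchymal-like cells gave 7 (16.71% of all genes). The causes of these shifts were not tested.

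With tags left out singly, the counts were 17 to 23 in the first pair, 19 to 24 in the second, 7 to 12 for their difference, 0 to 3 for AcCoc and 0 to 1 for AcMor in 2DCocu, 0 to 3 for AcMor in 3DMono and 0 to 0 in each of the remaining treatment contrasts. The 3 came without AcCoc tag 2 in 2DCocu and without AcMor tag 2 in 3DMono. Within classes they were 15 to 17 (cycling-like), 13 to 17 (excitatory) and 12 to 14 (GABAergic) in the first pair, and 13 to 16 (cycling-like), 17 to 20 (excitatory) and 12 to 17 (mesenchymal-like) in the second. The shares of all genes called in the fits that left out a tag are not given, so these ranges describe the member counts alone. Where 1 tag was left in a group, it was assumed to vary like the others.

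With the tag number as a replicate block, 19 members were called in the first pair (39.8% of all genes), 21 in the second (46.63%) and 11 for the difference (9.335%). For AcMor the count was 0 in 2DCocu (0.1943% of all genes, PCDH8 at 1.25, adjusted p = 0.09783) and 1 in 3DMono (0.1628%). Of the levels by class, 3 moved: CDH11 in 2-D mesenchymal-like cells to 1337 CPM with 50 cells, and at resolution 0.4 CDH23 in 2-D cycling-like cells to 22.79 and PCDH9 in intermediate progenitor-like cells to 901.6. Members under a few CPM, and contrasts of 2 against 2 tags, had the least precision.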
